A study of Mus musculus with 14 samples.

Results

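The 34 genes described here encode the enzymes, regulators and transporters of glycolysis, glycogen storage and lactate exchange, and they were followed in muscle precursor cells of 3 ages. They were chosen by name, with earlier results of these data known. All 69 probe sets annotated to them on the array were taken, whatever their values. Of the 34 genes, 26 had a probe set of their own that passed the filter on dim signal, among 13579 genes measured in all. Each of those 26 lay above the 40th percentile of the array on all 14 arrays. The arrays were Affymetrix mouse arrays hybridized with RNA from C57BL/6 myofibre-associated cells, which a sorter had taken as positive for CD29 and Cxcr4 and negative for CD45, Ter119 and Sca-1. Young cells came from mice of 2 months (5 arrays), middle-aged cells from mice of 12 months (4 arrays) and aged cells from mice of 24 months (5 arrays). No label names a treatment or a transgene, and all groups share the strain and the sort. The design asks which transcripts of muscle precursors change with age, and the title of the series concerns GDF11 in aged muscle. No label ties an array to an animal of its own, so the p-values measure only the spread between these 14 samples, which may be partly technical.

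Glycolysis splits glucose into pyruvate in a chain of steps in the cytosol and yields ATP without oxygen. Lactate dehydrogenase turns pyruvate into lactate and back, and pyruvate dehydrogenase kinases restrain the use of pyruvate by pyruvate dehydrogenase in mitochondria. Glycogen is the stored form of glucose, built by glycogen synthase and broken down by glycogen phosphorylase. Several of these steps have a muscle-type isoform, made in large amounts by contracting fibres. The other isoforms, here called general, are found in most cells or are richer in other tissues. Quiescent satellite cells, the stem cells that lie beside the fibre, are known for low metabolic activity.

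Values are log2 of the deposited intensities. A group mean stands with its SD over arrays and a change with limma's moderated standard error, and a gene was called at an adjusted p under 0.05 over all 13579 genes. The values of different probe sets cannot be ranked against each other as amounts of RNA, so only changes between ages are compared. RNA from a sorted pool cannot tell fewer cells of a kind apart from less RNA per cell.

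In aged against young cells, 2 of the 26 measured genes were called, both higher, and both encode muscle-type enzymes of lower glycolysis. Over all genes, 4.3% were called, 3.05% higher and 1.25% lower. Eno3, the muscle-type enolase, rose by 1.60 ± 0.24, which is 3.04-fold (adjusted p = 0.00125). Pgam2, the muscle-type phosphoglycerate mutase, rose by 1.76 ± 0.33, which is 3.38-fold (adjusted p = 0.00591). These enzymes catalyse neighbouring steps, since the mutase makes the substrate of enolase. The other 24 measured members were not called, and their changes ran from -0.53 for Hk1 to 0.63 for Tpi1.

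Eno3 measured 7.36, 6.41, 6.97, 7.03 and 6.57 on the 5 young arrays, 6.91, 7.03, 8.10 and 7.50 on the 4 middle-aged arrays and 8.14, 8.13, 8.55, 8.81 and 8.73 on the 5 aged arrays. Every aged array lay above every young array and above every middle-aged array, while middle-aged and young arrays overlapped. The age means were 6.87 ± 0.38 at 2 months, 7.38 ± 0.54 at 12 months and 8.47 ± 0.32 at 24 months. The later step, aged minus middle-aged, was 1.09 ± 0.26 (adjusted p = 0.250) and the earlier, middle-aged minus young, 0.52 ± 0.26 (adjusted p = 0.342). Neither step alone was called, nor was the difference between the steps (adjusted p = 0.648).

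Pgam2 measured 5.64, 5.15, 6.11, 5.55 and 5.36 on young arrays, 5.80, 5.79, 7.10 and 5.77 on middle-aged arrays and 6.52, 6.87, 7.20, 7.81 and 8.19 on aged arrays. All aged arrays were above all young arrays, and middle-aged array 3 reached into the aged range while the other middle-aged arrays lay within the young range. The age means were 5.56 ± 0.36, 6.11 ± 0.66 and 7.32 ± 0.68 at 2, 12 and 24 months. Aged cells exceeded middle-aged cells by 1.20 ± 0.35 (adjusted p = 0.361), which was not called. The F test over the 3 ages also called Eno3 and Pgam2 and no other member (adjusted p = 0.00342 and 0.0147), beside 4.16% of all genes.

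**Figure D1:**
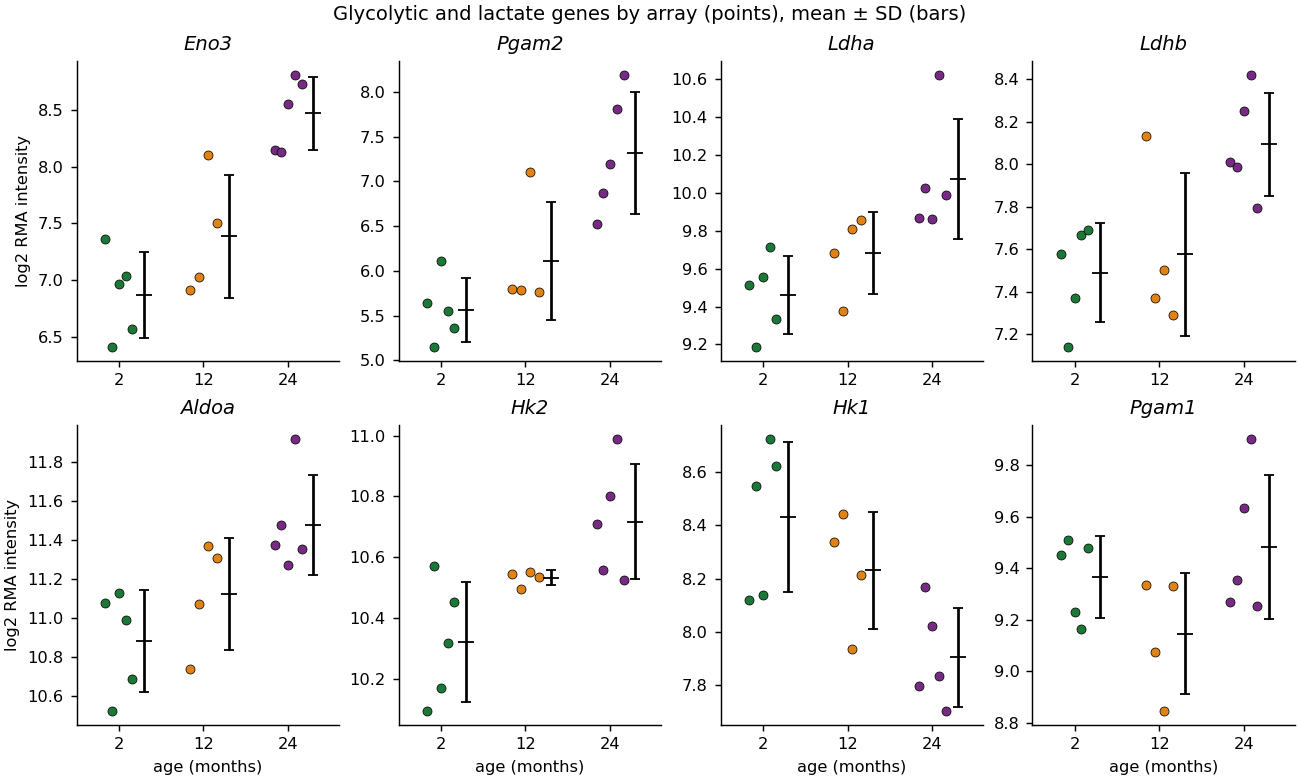
Log2 RMA intensity (y axis, a separate range in each panel) of 8 genes on the 14 arrays by age in months (x axis), with points for arrays and bars for the mean ± SD. For Eno3, Pgam2, Ldha, Ldhb and Aldoa all 5 aged points lie above all 5 young points, while for Hk1 4 aged points lie below all young points and Pgam1 overlaps between ages.

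The upstream sequences of these genes are printed because Eno3 and Pgam2 were the members called, and Pgam1 is the general counterpart of Pgam2. Each runs from 250 bases before to 50 bases after an annotated transcript start, from RefSeq on GRCm38.p6, on the strand of the gene. Eno3 spans chr11:70653125-70662513, so its window at chr11:70656926-70657225 (plus strand) lies inside the annotated span of the gene. The Pgam2 window is chr11:5803747-5804046 (minus strand) and the Pgam1 window chr19:41911621-41911920 (plus strand). Capitals mark E boxes (CANNTG, the core bound by myogenic factors of the MyoD family) and the match to the MEF2 motif, an AT-rich site of muscle promoters.
Eno3: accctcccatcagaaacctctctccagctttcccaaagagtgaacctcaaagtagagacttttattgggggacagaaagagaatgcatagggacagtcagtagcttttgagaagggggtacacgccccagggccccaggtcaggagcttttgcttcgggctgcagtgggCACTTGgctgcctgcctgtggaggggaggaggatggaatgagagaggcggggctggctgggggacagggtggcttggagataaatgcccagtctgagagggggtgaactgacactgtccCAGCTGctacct
Pgam2: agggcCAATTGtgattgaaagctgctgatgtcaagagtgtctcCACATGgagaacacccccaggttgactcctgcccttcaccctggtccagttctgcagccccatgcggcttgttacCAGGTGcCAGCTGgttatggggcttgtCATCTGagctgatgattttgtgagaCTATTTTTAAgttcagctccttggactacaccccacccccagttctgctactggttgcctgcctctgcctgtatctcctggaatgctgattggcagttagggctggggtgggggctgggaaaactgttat
Pgam1: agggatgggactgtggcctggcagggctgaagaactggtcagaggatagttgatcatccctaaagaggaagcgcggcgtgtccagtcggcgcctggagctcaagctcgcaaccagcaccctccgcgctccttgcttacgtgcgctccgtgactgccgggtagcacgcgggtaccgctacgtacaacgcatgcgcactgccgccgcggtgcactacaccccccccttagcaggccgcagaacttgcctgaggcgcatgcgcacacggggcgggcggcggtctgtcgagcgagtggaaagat

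The Eno3 window held 2 E boxes, a CACTTG whose first base is 81 bases before the start and a CAGCTG after the start. The Pgam2 window held 5 E boxes, among them a CAGCTG whose first base is 125 bases before the start, and a MEF2 match, CTATTTTTAA, that begins 80 bases before it. The Pgam1 window held neither motif. These matches were counted on both strands, and CAGCTG is itself a form of CANNTG. Of 32851 promoters in the same table, 72.3% held a CANNTG, 16.3% a CAGCTG and 3.19% a MEF2 match.

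Among the members, 32 of 34 had at least 1 promoter in the table, 46 promoters in all. Of 12 promoters of 7 muscle-type genes, 10 held a CANNTG, 5 a CAGCTG and 1 a MEF2 match. Of 14 promoters of 10 general isoform genes, 6 held a CANNTG, 0 a CAGCTG and 0 a MEF2 match. Of 20 promoters of the 15 remaining members, 15 held a CANNTG, 4 a CAGCTG and 0 a MEF2 match. The hypoxia response core ACGTG was present in 6 of the 12, in 6 of the 14 and in 10 of the 20, against 19.6% of all promoters. Promoters of the same gene can overlap, and a match shows letters, not binding.

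The remaining genes of lower glycolysis did not pass the test. Pgam1, the general phosphoglycerate mutase, measured 9.45, 9.51, 9.23, 9.16 and 9.48 on young arrays, 9.34, 9.08, 8.85 and 9.33 on middle-aged arrays and 9.27, 9.36, 9.63, 9.90 and 9.25 on aged arrays. The ages overlapped, and the aged minus young change was 0.12 ± 0.16 (adjusted p = 0.773). Pgk1, which makes ATP from bisphosphoglycerate, changed by 0.06 ± 0.12, and Pkm, the pyruvate kinase of most tissues, by -0.12 ± 0.26. Gapdh was represented only by 3 control probe sets and 3 probe sets shared with other genes, so it stayed outside the fit. The 3' control probe set of Gapdh had means of 12.38, 12.45 and 12.37 at 2, 12 and 24 months, the middle one 10.91, 11.05 and 11.12, and the 5' one 8.27, 8.74 and 9.06. Eno2, the neuronal enolase, was too dim, and Eno1 is not analysed here because no probe set was annotated to it.

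In upper glycolysis 8 of 10 genes were measured and none was called in aged against young cells, and the hexokinase genes had changes of opposite sign. Hk1, the general hexokinase, measured 8.12, 8.55, 8.14, 8.73 and 8.62 on young arrays, 8.34, 8.44, 7.94 and 8.21 on middle-aged arrays and 7.80, 8.17, 8.02, 7.83 and 7.70 on aged arrays. Of the aged arrays 4 lay below every young array, and the change was -0.53 ± 0.16 (adjusted p = 0.0797). Hk2, the hexokinase of insulin-sensitive tissues such as muscle, measured 10.09, 10.57, 10.17, 10.32 and 10.45 on young arrays, 10.55, 10.50, 10.55 and 10.54 on middle-aged arrays and 10.71, 10.56, 10.80, 10.99 and 10.53 on aged arrays. Only the highest young array reached into the aged range, and the change was 0.40 ± 0.13 (adjusted p = 0.113).

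Phosphofructokinase, which commits sugar to glycolysis, has 3 isoform genes on the list. The muscle-type Pfkm measured 6.96, 6.16, 7.03, 6.82 and 6.61 on young arrays, 6.58, 6.58, 7.07 and 7.03 on middle-aged arrays and 7.13, 7.35, 7.78, 6.95 and 6.99 on aged arrays, a change of 0.52 ± 0.20 (adjusted p = 0.184). The lowest aged arrays lay within the young range. The liver-type Pfkl measured 5.48, 6.04, 5.34, 5.80 and 5.58 on young arrays, 5.76, 5.77, 5.15 and 5.41 on middle-aged arrays and 6.04, 5.68, 4.86, 5.34 and 4.93 on aged arrays, a change of -0.28 ± 0.23. The platelet-type Pfkp measured 9.91, 10.22, 10.28, 10.25 and 10.38 on young arrays, 10.05, 10.46, 10.02 and 10.14 on middle-aged arrays and 9.86, 9.85, 10.03, 10.34 and 9.74 on aged arrays, a change of -0.24 ± 0.15. The age ranges of Pfkl and of Pfkp overlapped.

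Aldoa, the aldolase of muscle and many other cells, ran from 10.52 to 11.13 on young, 10.74 to 11.37 on middle-aged and 11.27 to 11.92 on aged arrays. All aged arrays lay above all young arrays, and the change of 0.60 ± 0.17 was not called (adjusted p = 0.0679). Tpi1, which interconverts the triose phosphates that aldolase releases, changed by 0.63 ± 0.20 (adjusted p = 0.104). Pfkfb3, which makes the activator fructose 2,6-bisphosphate, changed by -0.26 ± 0.23. Aldoc, a brain-rich aldolase, was too dim, and Gpi1 had no annotated probe set and is not analysed here.

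Both lactate dehydrogenase genes were higher on every aged than on every young array, and neither passed the adjusted threshold. Ldha, the subunit that predominates in fast muscle, measured 9.51, 9.19, 9.56, 9.71 and 9.34 on young arrays, 9.68, 9.38, 9.81 and 9.86 on middle-aged arrays and 9.87, 10.02, 9.86, 10.62 and 9.99 on aged arrays. The aged arrays also lay above the middle-aged arrays, by a narrow margin for the lowest of them. The aged minus young change was 0.61 ± 0.17, 1.53-fold (adjusted p = 0.0517). Ldhb, the subunit that predominates in heart, measured 7.58, 7.14, 7.37, 7.67 and 7.69 on young arrays, 8.13, 7.37, 7.50 and 7.29 on middle-aged arrays and 8.01, 7.99, 8.25, 8.42 and 7.80 on aged arrays. Middle-aged array 1 lay within the aged range and the other middle-aged arrays within the young range, and the aged minus young change was 0.60 ± 0.18, 1.52-fold (adjusted p = 0.0797).

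In all, 5 of the 26 genes (Aldoa, Pgam2, Eno3, Ldha and Ldhb) had aged arrays entirely above young arrays and 0 entirely below, against 3.48% and 1.97% of all genes. Without the adjustment, 9 of the 26 members had p under 0.05 in this comparison, and so did 16.6% of all genes.

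The transporters showed no called change. Slc2a1, the widespread glucose transporter GLUT1, measured 10.85, 11.14, 11.15, 10.98 and 10.82 on young arrays, 11.05, 11.00, 10.68 and 11.16 on middle-aged arrays and 10.91, 10.87, 10.77, 11.13 and 11.08 on aged arrays. Its ages overlapped throughout, with an aged minus young change of -0.04 ± 0.13. Slc2a4, the insulin-responsive transporter GLUT4 of muscle and fat, measured 5.69, 5.75, 5.70, 5.69 and 5.60 on young arrays, 5.79, 5.94, 5.80 and 5.93 on middle-aged arrays and 5.25, 5.52, 5.75, 5.50 and 6.50 on aged arrays. Every middle-aged array lay above every young array, and the aged arrays spread to both sides, with a change of 0.02 ± 0.18. Slc2a3, the high-affinity transporter GLUT3, changed by 0.02 ± 0.16 and Slc16a1, which carries lactate as MCT1, by 0.32 ± 0.20. Slc16a3, the lactate exporter MCT4, was too dim on these arrays.

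Glycogen genes did not pass the test either. Pygm, the muscle glycogen phosphorylase, measured 6.95, 6.25, 6.53, 7.04 and 6.39 on young arrays, 5.35, 6.62, 6.94 and 6.81 on middle-aged arrays and 7.03, 6.54, 6.48, 6.81 and 6.58 on aged arrays, a change of 0.06 ± 0.26. The aged values lay inside the young range, and middle-aged array 1 was below all other arrays. Pygb, the brain-type phosphorylase, measured 6.40, 5.42, 6.06, 6.12 and 5.60 on young arrays, 6.08, 5.91, 6.09 and 6.82 on middle-aged arrays and 5.65, 6.38, 5.90, 5.80 and 5.53 on aged arrays, a change of -0.07 ± 0.22. Gys1, the glycogen synthase of muscle, changed by 0.15 ± 0.21, and the liver phosphorylase Pygl was too dim. Phka1, the muscle regulatory subunit of phosphorylase kinase, changed by -0.15 ± 0.22 at the probe set that stands for it.

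Of the pyruvate dehydrogenase kinases, Pdk1 changed by -0.15 ± 0.34, Pdk3 by 0.08 ± 0.35 and Pdk4, which is induced by fasting in muscle, by -0.44 ± 0.25 (adjusted p = 0.431). Pdk2 was too dim. The members thus comprised 26 measured genes, 5 that were too dim, Gapdh, and Eno1 and Gpi1 with no probe set.

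**Figure D2:**
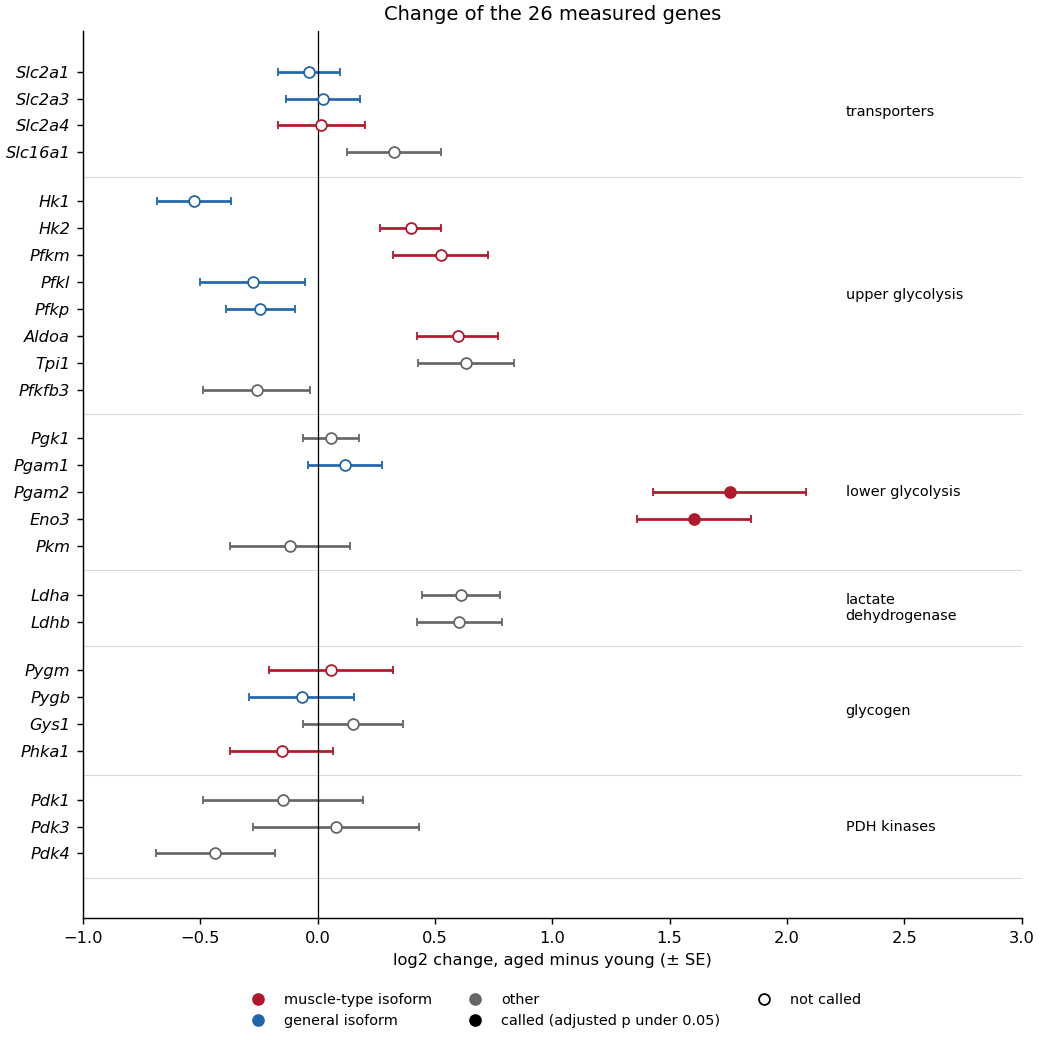
Log2 change of the 26 measured genes in aged minus young cells (x axis, points, with bars of 1 moderated standard error), by role from top to bottom, in red for muscle-type isoforms, blue for general isoforms and grey for the others. Filled points were called, and these are Pgam2 at 1.76 and Eno3 at 1.60.

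As groups, the 8 muscle-type isoforms (Pfkm, Pgam2, Eno3, Pygm, Phka1, Slc2a4, Hk2 and Aldoa) had 2 genes called higher, 7 changes above 0 and a median aged minus young change of 0.46. The 7 measured general isoforms (Hk1, Pfkl, Pfkp, Pgam1, Pygb, Slc2a1 and Slc2a3) had 0 called, 2 changes above 0 and a median of -0.07. These names are loose, since the general group holds the liver-type Pfkl, the platelet-type Pfkp and the brain-type Pygb. The muscle-type group holds Aldoa, which many other cells make, and Gys1 was placed in neither group. The median over all 26 members was 0.06 and over all genes -0.05. Of all 13579 genes 3.05% were called higher and 5686 had changes above 0. The muscle-type group was uneven, since Pygm, Phka1 and Slc2a4 had changes of 0.06, -0.15 and 0.02. For Phka1 this depends on the probe set, since its other kept probe set was higher by 1.09.

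Muscle-type and general isoforms, and Ldha with Ldhb, were then compared within the same array, as the difference of their log2 values. This covered the 7 of 10 listed pairs with both genes measured. With 3 age comparisons this made 21 exact two-sided permutation tests over arrays, whose smallest possible p is 0.00794, and p was adjusted over the 21. In aged minus young cells Pgam2 changed by 1.64 more than Pgam1 (exact p = 0.00794, adjusted p = 0.0556). Hk2 changed by 0.92 more than Hk1 (exact p = 0.00794, adjusted p = 0.0556). Neither pair passed after the adjustment, although in both every aged array lay above every young array. Both already had the smallest possible p, so not passing reflects the number of tests and arrays and does not show equal change.

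The hexokinase pair was the sole pair whose middle-aged arrays also stood apart from its young arrays. Relative to the young mean, the Hk2 minus Hk1 difference ran from -0.30 to 0.14 on young, from 0.16 to 0.72 on middle-aged and from 0.50 to 1.27 on aged arrays. Middle-aged arrays did not overlap young arrays (0.41, exact p = 0.00794, adjusted p = 0.0556), while aged and middle-aged arrays overlapped (0.51, exact p = 0.0317, adjusted p = 0.133).

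Pfkm changed by 0.77 more than Pfkp (exact p = 0.0238, adjusted p = 0.125) and by 0.80 more than Pfkl (exact p = 0.0794, adjusted p = 0.238) in aged minus young cells. The difference was 0.12 for Pygm against Pygb (exact p = 0.611), 0.05 for Slc2a4 against Slc2a1 (exact p = 0.833) and 0.01 for Ldha against Ldhb (exact p = 0.968). Relative to the young mean, the Ldha minus Ldhb difference ran from -0.36 to 0.23 on aged and from -0.33 to 0.21 on young arrays. That result depends on the probe set, since with the probe set of highest variance for each gene the difference was -0.30 (exact p = 0.238). Eno3 could not be set against Eno1, Pygm against Pygl or Aldoa against Aldoc.

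**Figure D3:**
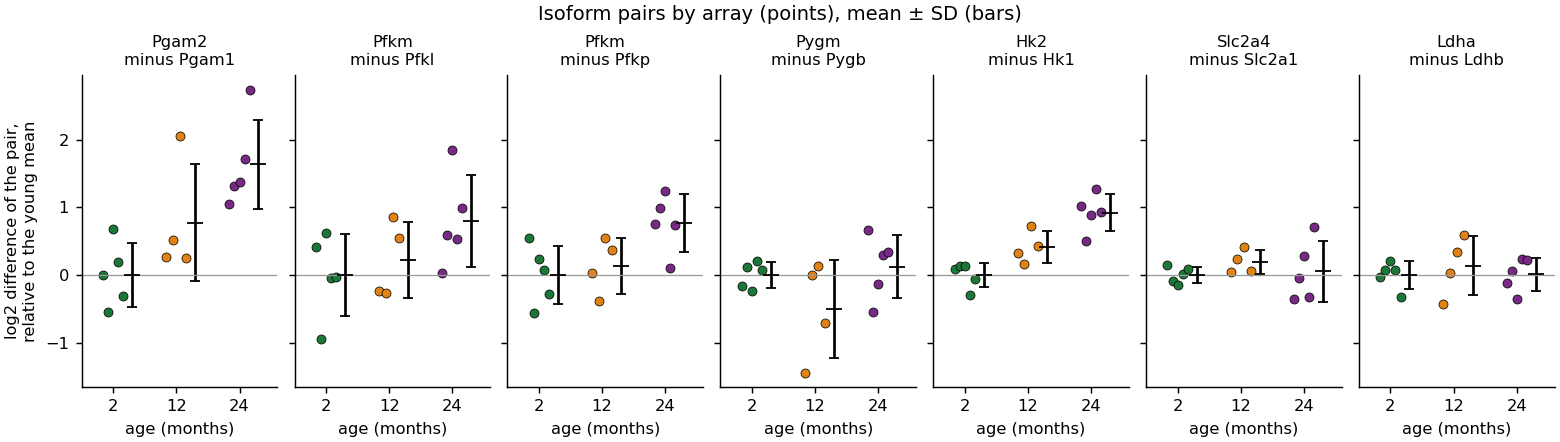
Difference in log2 value between the genes of 7 isoform pairs on each array, relative to the mean of the young arrays (y axis), by age in months (x axis), with points for arrays and bars for the mean ± SD. In the Pgam2 and Pgam1 pair and in the Hk2 and Hk1 pair all aged points lie above all young points. The means of the Ldha and Ldhb pair stay around 0 at the probe sets that stand for these genes.

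Middle-aged against young cells gave 0 called members, against 2.97% of all genes called, 1.75% higher and 1.22% lower. Slc2a4 was the sole member with every middle-aged array above every young array, against 3.62% of all genes, and 0 members were entirely lower, against 5.07%. Slc2a4 changed by 0.18 ± 0.20 (adjusted p = 0.738), and its other kept probe set by -0.02. At an unadjusted p under 0.05 there was 1 of the 26 members, beside 16.3% of all genes. That member, Slc2a3, was higher by 0.37 ± 0.17 (adjusted p = 0.285). In aged against middle-aged cells 0 members and 0 of all genes were called by limma, and 4 members (Pgam2, Eno3, Ldha and Ldhb) and 1306 genes had an unadjusted p under 0.05. Eno3 and Ldha had all aged arrays above all middle-aged arrays, against 1.41% of all genes, and 0 members had all of them below, against 1.08%. The difference of the later from the earlier step was called for 0 members and 0 genes, with 1 member and 1614 genes at an unadjusted p under 0.05.

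Several genes were read by more than 1 probe set, and these did not always move alike. All 50 kept probe sets of the members were tested singly among 23887, where 2.21% were called higher and 0.888% lower, and 5 were called higher and 0 lower. They were the only kept probe sets of Eno3 and Pgam2, 2 of Aldoa and 1 of Phka1. The 5 Aldoa probe sets changed by 0.15 to 0.90, and the called ones by 0.90 (adjusted p = 0.0128) and 0.66 (adjusted p = 0.0424). A Phka1 probe set, which does not stand for the gene because its mean is lower, was higher by 1.09 ± 0.26 (adjusted p = 0.0354), while the other kept one changed by -0.15.

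The 4 Ldhb probe sets were higher by 0.60 to 0.91 and the 3 Tpi1 probe sets by 0.63 to 0.79, and none of these was called. The 3 Pgk1 probe sets changed by 0.06 to 0.33. Of the 14 genes with more than 1 kept probe set, 4 (Pdk1, Phka1, Slc2a1 and Slc2a4) had changes of both signs.

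**Figure D4:**
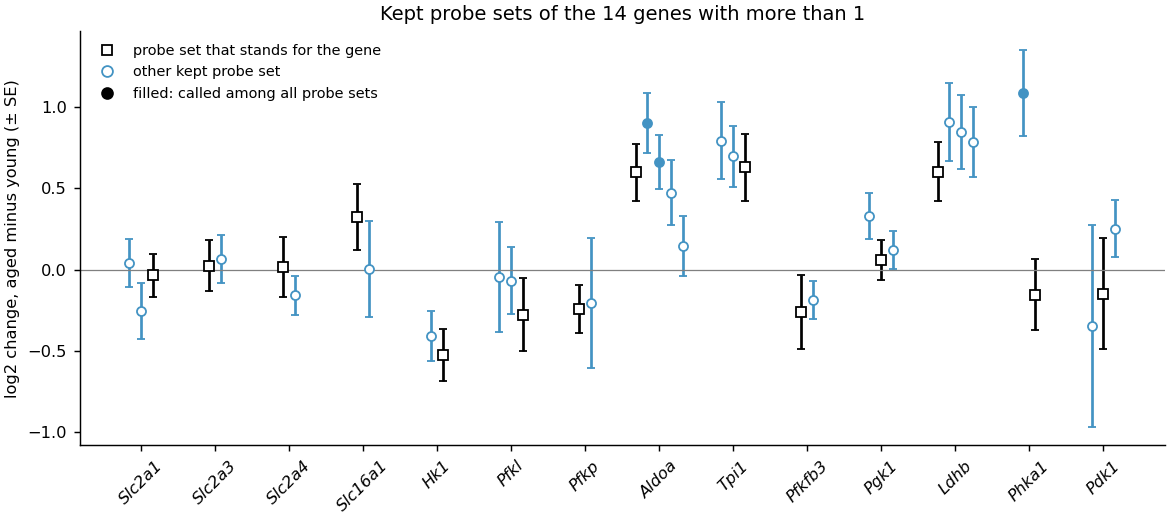
Log2 change in aged minus young cells (y axis, bars of 1 moderated standard error) of each kept probe set of the 14 genes with more than 1 (x axis), with a black square for the probe set that stands for the gene and blue circles for the others. Filled circles were called, 2 for Aldoa and 1 for Phka1, and the Phka1 probe sets lie at 1.09 and -0.15.

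Contractile transcripts moved in the same direction as Eno3 and Pgam2. Of 28 listed genes of the contractile fibre 26 were measured. In aged against young cells 13 were called higher and 1, Actn3, lower, beside 3.05% and 1.25% of all genes. By sign, 24 changes were above 0 and 2 below, with a list median of 1.09. Tnnt3, a fast troponin subunit, rose by 2.73 ± 0.33, Mylpf, a fast regulatory light chain, by 2.34 ± 0.30, Myl1, a fast essential light chain, by 2.93 ± 0.44 and Tnnc2, the fast troponin C, by 2.26 ± 0.34. Actn3, an actinin of fast fibres, fell by 1.00 (SE 0.21, adjusted p = 0.0129). The summed linear intensity of the 26 genes was 3415 to 7439 on young, 4146 to 7657 on middle-aged and 7793 to 17725 on aged arrays. The summed levels of aged and young arrays, and of aged and middle-aged arrays, did not overlap.

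With the mean log2 of the contractile list as a covariate, the aged minus young change was 0.56 ± 0.29 for Eno3 (adjusted p = 0.480) and 0.33 ± 0.38 for Pgam2 (adjusted p = 0.787), and 0 members were called. That mean itself differed with age, at 6.50 ± 0.47, 6.71 ± 0.32 and 7.71 ± 0.36 at 2, 12 and 24 months. Where the contractile transcripts came from was not tested.

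**Figure D5:**
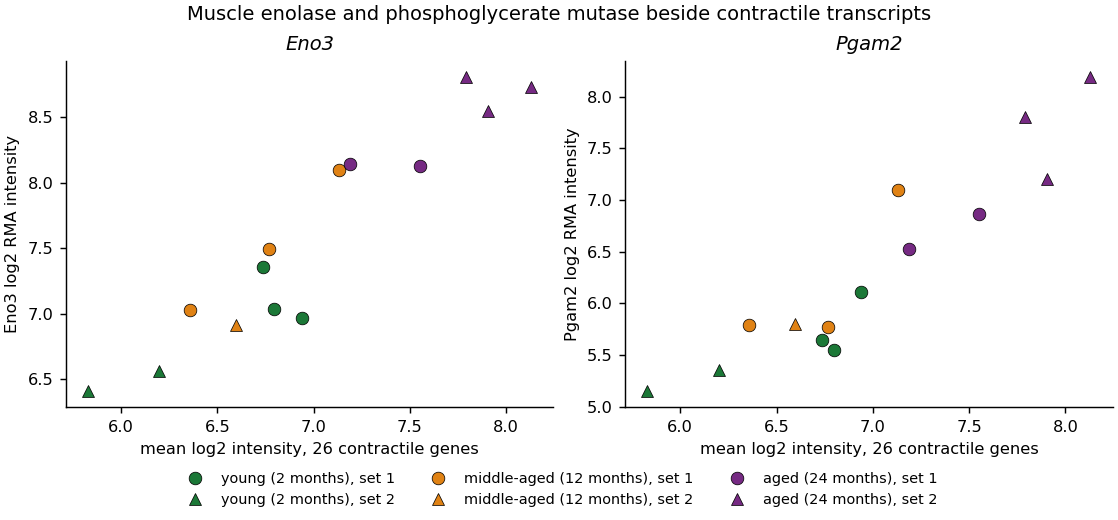
Log2 RMA intensity of Eno3 (left) and Pgam2 (right) on the y axes against the mean log2 intensity of 26 contractile genes (x axes) on the 14 arrays, with green, orange and purple for young, middle-aged and aged arrays and circles and triangles for array sets 1 and 2. Aged arrays lie at the upper right, at contractile means of 7.19 to 8.13, and young arrays at the lower left, at 5.83 to 6.94.

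The arrays were also split, across the ages, into sets of 8 and 6 arrays. These sets were defined after the values were seen, by the sign of the leading component (31.5% of the variance). That component was taken from values from which the age means had been removed. Such a rule splits any data, so the sets do not show that the arrays form groups. Within set 1, with 2 aged and 3 young arrays, Eno3 was higher in aged cells by 1.01 and Pgam2 by 0.93. Within set 2, with 3 aged and 2 young arrays, the differences were 2.21 and 2.48. The contractile list had a median difference of 0.59 in set 1 and 1.79 in set 2. Ldha was higher by 0.35 and 0.90, Aldoa by 0.36 and 0.91 and Ldhb by 0.46 and 0.74 in sets 1 and 2, and Hk1 was lower, at -0.35 and -0.73. The middle-aged arrays of set 2 numbered 1, so that age has no spread there.

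RNA quality was read as the log2 signal of 3' control probe sets for Gapdh and Actb minus that of the 5' ones, which had means of 4.31 ± 0.54 at 2 months, 3.85 ± 0.25 at 12 months and 3.54 ± 0.51 at 24 months. With that difference as a covariate Eno3 remained called at 1.64 (adjusted p = 0.0145), and Pgam2 stood at 1.54 (adjusted p = 0.0589). Median intensity ran from 19.0 to 21.2 over the arrays, and their number limits the precision.

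Markers of the sorted cells and of other cells were read on the same arrays. Of 10 satellite cell markers 0 were called higher and 3 lower in aged against young cells, beside 3.05% and 1.25% of all genes. The 3 were Calcr, Chrdl2 and Fgfr4. By sign, 1 change was above 0 and 9 below, and the list median was -0.61. Pax7, the factor that defines satellite cells, changed by -0.50 ± 0.26 (adjusted p = 0.360). Their summed intensity was 12598 to 18332 on aged and 15888 to 21059 on young arrays, which overlapped. Tenocyte markers had 6 of 8 called higher in aged against young cells, with 7 changes above 0 and 1 below. Their sum was 6116 to 13206 on young, 33304 to 58185 on middle-aged and 28679 to 55734 on aged arrays. Macrophage markers had 5 of 8 measured and 0 called, with Ptprc, which encodes CD45, too dim. Endothelial markers had 6 of 9 measured, with Pecam1, Tie1 and Emcn too dim. Of these 6, 5 had changes above 0 and none of those was called, 1, Tek, was called lower, and the median was 0.27. Their sum was 348 to 456 on young, 213 to 320 on middle-aged and 190 to 890 on aged arrays.

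Single markers of 3 further lists were called higher in aged cells, beside 3.05% of all genes. The pericyte and smooth muscle list had 5 changes above 0 and 2 below, and the fibro-adipogenic list 5 above and 3 below. Of 7 pericyte and smooth muscle markers 1 was called, Pdgfrb, which encodes a PDGF receptor and rose by 2.77 ± 0.32 (adjusted p = 0.000215), and the list median was 1.22. Of 8 fibro-adipogenic markers 1 was called, the proteoglycan gene Dcn, which rose by 1.27 ± 0.18 (adjusted p = 0.000695), and the list median was 0.32. Of 5 adipocyte markers 2 were measured and 1, Fabp4, a fatty acid carrier, rose by 3.15 ± 0.79 (adjusted p = 0.0347), while Plin1, Lep and Cfd were not measured. The summed levels of aged and young arrays overlapped in all 3 lists. Schwann cell markers (4 of 6 measured) and erythroid markers (1 of 4) had 0 called. The part of these cells in the changes of glycolytic genes was not tested.

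Of 25 measured genes among 33 further enzymes and regulators of glycolysis and glycogen, 1 was higher in aged than in young cells and 0 lower, with a median of 0.06, near the share of all genes called (4.3%). That gene was Ppp1r3c, which targets protein phosphatase to glycogen, at 7.53 ± 0.77 on aged and 5.64 ± 0.38 on young arrays, a change of 1.89 ± 0.34 (adjusted p = 0.00457). In middle-aged against young cells the called gene of this list was Epm2a, the glycogen phosphatase laforin, at 5.44 against 4.26, higher by 1.18 ± 0.21 (adjusted p = 0.00718).

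Of 9 measured genes for the transport and use of pyruvate in mitochondria 0 were called in aged against young cells, with a median of -0.12. Of 7 pentose phosphate genes H6pd, which starts that pathway in the endoplasmic reticulum, was higher in aged cells by 0.89 ± 0.18 and in middle-aged cells by 0.97 ± 0.19. Taldo1, the transaldolase, was lower in middle-aged than in young cells by a change of -0.63 ± 0.15 (adjusted p = 0.0366). Of 13 genes of the hypoxia response, which induces many glycolytic enzymes, 2 were called higher in aged cells, beside 3.05% of all genes. Bnip3, a mitophagy receptor, rose by 0.99 ± 0.21 and Adm, the peptide adrenomedullin, by 0.94 ± 0.24. The hypoxia list had 9 changes above 0 and 4 below, with a median of 0.19.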

How the data were processed

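Expression was measured on 14 arrays, grouped by the age in the labels. Values are RMA intensities per the submitters' processing notes, and the authors deposited these intensities on a linear scale, of which log2 was taken here with no further normalization. The RMA version is not given in the sources used here. Platform annotation named the genes, and the sequences are RefSeq's. Control probe sets and those of several genes were left out, and a probe set was kept when it exceeded the 40th percentile of its array on at least 4 arrays. Where a gene had several kept probe sets, that of highest mean stood for it. Linear models with age as the factor were fitted over all 13579 genes with limma 3.58.1 in R 4.3.3, by moderated tests, two-sided, with p adjusted by Benjamini and Hochberg's method and called under 0.05. The script was tested on simulated data. All 34 members are named, with array values for called genes and isoform pairs, and other list genes only where called, up to 4 a list by smallest p. Actn3 is named as the sole contractile gene called lower, and Pax7 and the markers named as too dim were added to check the sort. The members and lists were chosen with earlier results of these data known. Same-numbered arrays of different ages gave correlations of -0.484 to 0.261 between their deviations from the age means, so the numbers do not pair the arrays.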

Additional observations from a re-analysis of the deposited data

Results flagged for a closer look

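Single arrays stood apart from the rest of their age group in 4 of 78 groups of values (26 genes at 3 ages), by a gap test on the highest or lowest array that flags about 1 group in 20 by chance. Pgam2 measured 7.10 on middle-aged array 3, against 5.77 to 5.80 on the other middle-aged arrays. Ldha measured 10.62 on aged array 4, against 9.86 to 10.02 on the other aged arrays. Pfkfb3 measured 5.51 on middle-aged array 1, against 4.37 to 4.55 on the others of that age. Gys1 measured 5.92 on young array 1, against 4.94 to 5.01 on the other young arrays.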

How the results depend on the processing

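The 2 members called higher in aged against young cells became 4 with the probe set of highest variance (Aldoa and Phka1 added), 4 with median centring (Aldoa and Ldha), 4 with the array set as a term (Aldoa and Ldha), 4 with every probe set tested singly (Aldoa and Phka1), 3 with quantile normalization (Ldhb), 3 without probe sets of shared sequence (Tpi1), 5 with the hybridization controls as a covariate (Hk2, Ldha and Ldhb), 1 with the 3' minus 5' covariate (Eno3) and 0 with the contractile covariate. With the array set as a term 1 member, Pdk4, was called lower (-0.58, adjusted p = 0.0313). The 2 members called by the F test became 1 with the 3' minus 5' covariate and 0 with the contractile covariate, and 3 with the probe set of highest variance, the array set or probe sets tested singly (Aldoa added) and with the hybridization controls or without middle-aged array 1 (Ldhb added). The isoform pairs called in aged against young cells, 0 by the exact test, numbered 2 in a linear fit of all 14 arrays. Phka1 was called at 1.09 with the probe set of highest variance, where its own was at -0.15. With a replicate block, which the numbers do not warrant, the counts were 4 members (Tpi1 and Ldha added) and 2 pairs. Each array left out in turn gave 2 to 3 members higher, the 3 without middle-aged array 1 (Ldhb added). Eno3 and Pgam2 stayed called in every one of these omissions. In all other comparisons the counts of members stayed at 0 under the alternatives run. Of 655 values that were called neither way, 44 changed sign. The causes were not tested.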
